A study of Mus musculus with 107 samples.

Results

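The comparison described here set neural progenitor cells (NPC) that dwelt for 4 hours in hydrogel before passage through a glass pipette (DCH 4h) against NPC that went through the pipette in the same hydrogel with no dwell (DCH). The libraries were chosen by their sample titles, 5 DCH 4h and 5 DCH, which makes 10 of the 107 libraries and 2 of the 23 conditions in the series. The series followed NPC derived from mouse embryonic stem cells through culture, differentiation and grafting. All 10 libraries came from ES-derived NPC of genotype RiboTag + on a C57BL/6 background, with the HA tag on both copies of Rpl22, mixed with hydrogel and drawn into pulled glass pipettes. The methods trace these NPC to 1 embryonic stem cell line, so the line is not replicated, and neither the passage used for pipetting nor separate cultures behind the replicate numbers are given in the sources used here. The p-values therefore measure the spread between these libraries, which may be technical. The question put to this comparison was whether the time that cells wait in the pipette during a grafting session changes them before they reach the tissue, 4 hours being the longest such wait. The 5 libraries of NPC pipetted in medium (media) are given beside the results as a second reference. No library came from NPC held in medium for 4 hours, so the wait itself and the hydrogel around the cells cannot be told apart.

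The hydrogel is a physically crosslinked diblock copolypeptide based on methionine sulfoxide (DCH, used at 2.5%) that carries cells through a fine needle and sets around them. RiboTag cells carry an HA-tagged form of the ribosomal protein Rpl22, so that pulling down HA recovers mRNA held on cytoplasmic ribosomes, and an NPC is a dividing cell kept undifferentiated by EGF and FGF, marked by nestin and Sox2, that can give astrocytes, oligodendrocytes or neurons. Genes of the mitochondrial genome are translated by the organelle's own ribosomes, which contain no Rpl22.

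Total gene counts ran from 62703026 to 88257346 in the DCH libraries and from 47988245 to 79123582 in the DCH 4h libraries. Levels below are CPM, the counts of a gene scaled to a library total of 1000000. The labelled cell type was borne out by its markers in all 10 libraries, in which 18 of 19 progenitor genes averaged at least 10 CPM, with Sox2 between 218.0 and 274 CPM and Fabp7, the brain fatty acid binding protein, between 1118 and 1225 CPM. Of the markers of other cells, 12 of 19 neuronal, 8 of 9 pluripotency, 4 of 5 endothelial and all 6 myeloid genes averaged under 1 CPM, while 7 of 9 fibroblast and mesenchymal genes averaged at least 1 CPM, with a summed level of 37.3 to 51.9 CPM in DCH and 39.5 to 51.8 CPM in DCH 4h. Neurog2 and Aif1 had no read in any of the 10 libraries. The summed level of the 37 astrocyte genes was 6326 to 6643 CPM in DCH and 6406 to 6689 CPM in DCH 4h. That of the 17 oligodendrocyte lineage genes, led by Olig1, was 4783 to 5195 CPM in DCH and 5125 to 5365 CPM in DCH 4h. On principal components over all genes tested, DCH replicate 4 and DCH 4h replicates 2 and 4 stood apart from the rest of their groups, and counts without these 3 libraries are given where they bear on a result. Media replicate 1 stood farther from its group than any of them did. The first 2 of these components held 10.5% and 9.99% of the variance. On components of genes averaging at least 10 CPM, DCH 4h replicate 2 lay near replicates 1, 3 and 5.

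Few genes passed the test after a dwell of 4 hours in hydrogel. Of 13768 genes tested, 6 rose and 38 fell at an adjusted p below 0.01 in edgeR's quasi-likelihood test, which is 0.0436% and 0.276% of the genes tested. In such bulk libraries fewer cells with a transcript and less of it per cell cannot be told apart. Together they are 0.32% of those tested, while 9.63% had an unadjusted p below 0.05. DESeq2 called 159 genes on the same libraries, 53 higher and 106 lower, with all 44 among them. The groups did not overlap for any of the 44, beside 1.05% of all genes tested with every DCH 4h library higher and 1.62% with every one lower, 2.67% in all. Only Fndc1 among the genes that rose, and ND6, ND5, ND1, Atad5, Cenpe and COX1 among those that fell, changed at least 2-fold, and 95.9% of all genes tested lay under 2-fold. Over all genes the median log2 fold change was 0.0026, with 5th and 95th percentiles of -0.58 and 0.59. On genes averaging at least 10 CPM, the root mean square distance between a DCH 4h and a DCH library averaged 0.324 on the log2 scale, beside 0.293 between DCH libraries and 0.320 between DCH 4h libraries. The medium libraries lay farther off, at 0.348 from DCH and 0.385 from DCH 4h. Without the 3 libraries that stood apart, 5 genes rose and 30 fell, 31 of them among the 44. In simulated counts of this design, the changed genes were drawn only from those averaging at least 10 CPM in DCH. Of these, 14 of 50 genes changed 1.3-fold, 38 of 50 changed 1.5-fold and 47 of 50 changed 2-fold were recovered. Most changes of 1.3-fold were thus not detectable at this replication, and genes at lower counts were not simulated as changed. In the same counts DESeq2 called 10 genes that had not been changed, and edgeR 0.

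**Figure D1:**
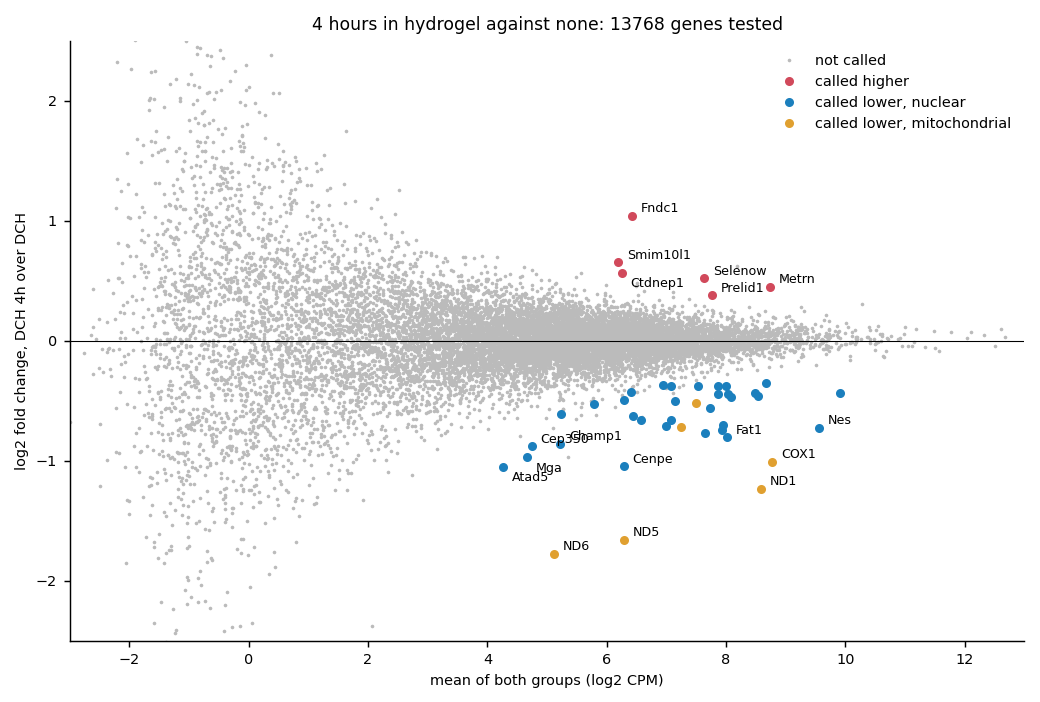
Log2 fold change of DCH 4h over DCH (vertical axis) against the mean level of both groups in log2 CPM (horizontal axis) for each of the 13768 genes tested, with the 44 genes at an adjusted p below 0.01 in colour. The 6 genes that rose lie between 0.38 and 1.04 and the 38 that fell between -0.35 and -1.77, and 44 of the genes tested lie beyond the axis range.

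The 6 genes that rose were Fndc1, Smim10l1, Ctdnep1, Selenow, Metrn and Prelid1. Fndc1 (chr17:7738569-7827340, GRCm38), which encodes a secreted protein with fibronectin type III domains, rose most. It measured 42.7, 48.5, 58.05, 67.6 and 63.4 CPM in DCH and 113, 125, 111, 127 and 98.9 CPM in DCH 4h. The lowest DCH 4h library lay well above the highest DCH library, and the log2 change was 1.04 ± 0.11 (adjusted p = 2.21e-06), where the error is the standard error of the fit. In media Fndc1 stood at 69.4 ± 20.7 CPM (SD, n = 5), and media replicate 5, at 103 CPM, lay above the lowest DCH 4h library. The log2 change of DCH 4h against media was 0.74 ± 0.14 (adjusted p = 5.25e-04), with overlapping groups. Metrn (chr17:25794571-25797045) encodes meteorin, a secreted protein known for promoting glial differentiation and axonal outgrowth. Its levels were 328, 342, 362, 374 and 390.1 CPM in DCH and 447, 455, 523, 536 and 483 CPM in DCH 4h, a log2 change of 0.45 ± 0.057 (adjusted p = 3.45e-05). Again no DCH 4h library fell within the range of DCH. Selenow, the small redox protein selenoprotein W, measured 139.5, 174, 167, 153 and 182 CPM without the dwell and 219, 236, 246, 231 and 234 CPM after it, a log2 change of 0.52 ± 0.066 (adjusted p = 3.45e-05). Its DCH 4h libraries lay close together, all above the highest DCH library. Prelid1, a lipid transfer protein of the mitochondrial intermembrane space, went from 189 ± 12.8 to 245 ± 17.1 CPM (SD, n = 5 each), a log2 change of 0.38 ± 0.061 (adjusted p = 9.63e-04). Ctdnep1, a phosphatase of the nuclear envelope that acts on the lipid enzyme lipin, changed by 0.57 ± 0.097 (adjusted p = 0.00230), and Smim10l1 by 0.65 ± 0.12 (adjusted p = 0.00683). Both lost the call in 6 of 10 fits that each left out 1 library, while Fndc1, Metrn, Selenow and Prelid1 kept it in all 10. Smim10l1 was also not called without the 3 libraries that stood apart. Just outside the threshold, Jund, an AP-1 transcription factor, stood at 161.5 ± 6.37 CPM in DCH and 197 ± 10.5 CPM in DCH 4h (SD, n = 5 each, log2 change 0.29 ± 0.058, adjusted p = 0.0107).

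The 250 bases before a RefSeq start (GRCm38.p6) are shown for 3 of the genes that rose and for Nes among those that fell. They set side by side the promoters of genes that moved over the same 4 hours. Capitals mark a match, on either strand, to 1 of 6 motifs searched: the hypoxia core ACGTG, the E-box CACGTG, the AP-1 site TGANTCA, the amino acid response site TGATGNAA, the cyclic AMP core TGACG and the CArG box.
Metrn, chr17:25797046-25797295, minus strand: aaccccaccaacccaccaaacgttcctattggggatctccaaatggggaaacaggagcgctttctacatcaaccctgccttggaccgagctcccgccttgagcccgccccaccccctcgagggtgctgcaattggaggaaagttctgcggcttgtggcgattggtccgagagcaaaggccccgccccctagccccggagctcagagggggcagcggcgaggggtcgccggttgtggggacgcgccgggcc
Prelid1, chr13:55321805-55322054, plus strand: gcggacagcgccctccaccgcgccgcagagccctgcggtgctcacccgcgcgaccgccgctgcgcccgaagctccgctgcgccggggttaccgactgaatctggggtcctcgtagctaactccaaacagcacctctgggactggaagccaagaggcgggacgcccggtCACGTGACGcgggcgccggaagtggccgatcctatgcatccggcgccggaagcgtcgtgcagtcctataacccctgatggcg
Smim10l1, chr6:133104989-133105238, plus strand: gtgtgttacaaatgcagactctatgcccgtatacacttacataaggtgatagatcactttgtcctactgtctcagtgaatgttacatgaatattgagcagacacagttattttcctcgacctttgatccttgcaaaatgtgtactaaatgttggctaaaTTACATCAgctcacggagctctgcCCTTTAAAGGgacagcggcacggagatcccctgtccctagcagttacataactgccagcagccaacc
Nes, chr3:87970843-87971092, plus strand: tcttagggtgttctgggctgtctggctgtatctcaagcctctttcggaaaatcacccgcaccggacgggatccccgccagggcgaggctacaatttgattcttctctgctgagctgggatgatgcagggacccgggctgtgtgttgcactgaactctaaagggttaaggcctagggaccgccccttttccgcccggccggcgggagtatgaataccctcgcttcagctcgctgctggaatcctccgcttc
The windows of Metrn and Nes held none of the 6 motifs. That of Prelid1 held an E-box, with the hypoxia core inside it on both strands, that ran into a cyclic AMP core. That of Smim10l1 held an amino acid response site and a CArG box. The Smim10l1 window lies within the annotated span of the gene (chr6:133099150-133112089) and not before it. No motif was found in more than 1 of the 6 windows of the genes that rose. Windows were found for 26 of the 32 nuclear genes that fell, 36 windows in all. Of these, 13 held the cyclic AMP core (36.1%, beside 26.2% of the 13457 windows of genes tested), 8 the hypoxia core (22.2%, beside 21.4%) and 1 the AP-1 site, and none held the E-box, the amino acid response site or the CArG box. A match is a description of the letters in the window.

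The genes that fell included Nes, Tnc and Notch1, which are tied to the progenitor state. Nes (chr3:87971093-87980451) encodes nestin, the intermediate filament protein that marks neural progenitors. It measured 940.3, 1014, 929.9, 873 and 935 CPM in DCH and 577, 640.4, 529.8, 570.3 and 507 CPM in DCH 4h. The groups were far apart, and the log2 change was -0.73 ± 0.053 (adjusted p = 6.21e-09). Notch1 (chr2:26457902-26503822), the receptor that holds progenitors undifferentiated, measured 272, 256, 253, 238 and 251 CPM in DCH and 168, 164, 178, 169 and 178 CPM in DCH 4h, a log2 change of -0.56 ± 0.053 (adjusted p = 4.90e-07). Tnc (chr4:63959785-64047015), the matrix glycoprotein tenascin C of the progenitor niche, measured 281, 288, 295, 228 and 256 CPM without the dwell and 173, 197, 191.7, 220.3 and 204 CPM with it. Its groups came close, the highest DCH 4h library lying just under the lowest DCH library, and the log2 change was -0.45 ± 0.069 (adjusted p = 6.43e-04). Sox2, the transcription factor that also marks these cells, and 16 other progenitor genes were not called in either direction. Over the 19 progenitor genes tested, 2 fell (Nes and Tnc), none rose, 11 had a log2 change above 0, and the median was 0.015.

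**Figure D2:**
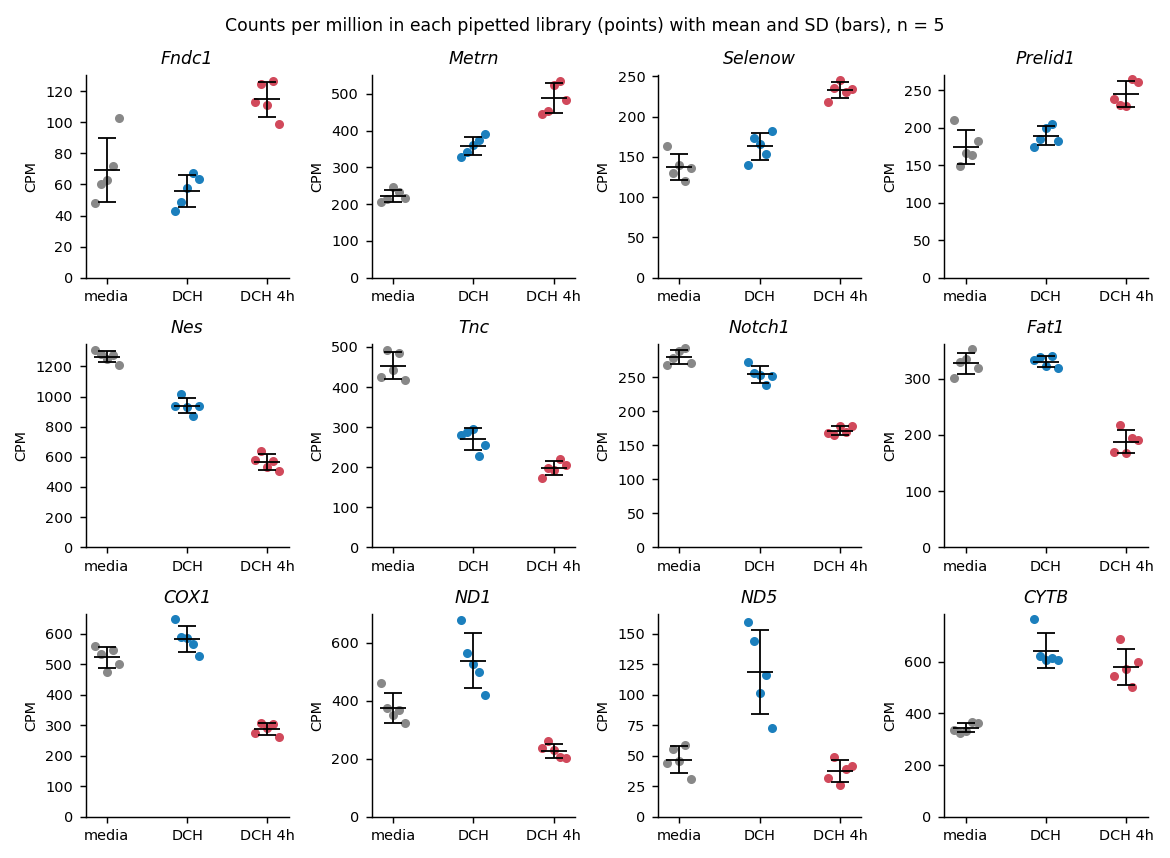
CPM in each of the 15 pipetted libraries (points, n = 5 a group) for 12 genes, with the group mean and SD (bars) and every vertical axis starting at 0. For Fndc1, Metrn, Selenow and Prelid1 all DCH 4h points lie above all DCH points, for Nes, Tnc, Notch1, Fat1, COX1, ND1 and ND5 all lie below, and for CYTB the 2 groups overlap.

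The other nuclear genes that fell could be grouped, after the calls were seen, by what they are known for, and these groupings carry no test. The group of actin, adhesion and polarity proteins held 11 of the 32 nuclear genes, with log2 changes from -0.38 to -0.81. Fat1 (chr8:44933100-45052257), a giant cadherin of cell contacts, measured 333, 339, 322, 340.3 and 318 CPM in DCH and 170.3, 217, 168, 195 and 190.1 CPM in DCH 4h, and changed by -0.81 ± 0.064 (adjusted p = 1.73e-08). The spread within DCH was narrow and every DCH 4h library lay far below it. Ctnnb1, beta-catenin, went from 1108 ± 70.9 to 813 ± 34.0 CPM (SD, n = 5 each), a log2 change of -0.44 ± 0.043 (adjusted p = 6.66e-07). The rest included Fat4, the actin crosslinkers Actn4, Actn1 and Flna, the spectrin Sptbn1, the polarity scaffold Scrib, the GTPase exchange factor Trio and Limch1, of which Limch1 and Sptbn1 kept the call in 3 or fewer of the 10 fits that left out a library.

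Further groups took in nuclear and division proteins. Of the splicing proteins, Son, a scaffold of nuclear speckles, measured 248.6, 246, 235, 261 and 279 CPM in DCH and 144, 148, 141, 155 and 153 CPM in DCH 4h, a log2 change of -0.77 ± 0.058 (adjusted p = 9.18e-09). Srrm2, another speckle scaffold, changed by -0.45 ± 0.061 (adjusted p = 1.22e-04) and Prpf8, the core of the spliceosome, by -0.35 ± 0.045 (adjusted p = 4.89e-05). Of 4 chromatin and transcription proteins, the remodeller Ep400 changed by -0.66 ± 0.075 (adjusted p = 7.46e-06) and the maintenance DNA methyltransferase Dnmt1 by -0.38 ± 0.052 (adjusted p = 1.32e-04), and the histone methyltransferase Setdb1 and the Max partner Mga fell as well. A group of 6 serves division, replication or microtubules, with log2 changes from -0.46 to -1.05. Cenpe, the kinetochore motor, measured 97.3, 95.9, 120.0, 86.9 and 126 CPM in DCH and 47.0, 58.5, 37.8, 53.7 and 56.4 CPM in DCH 4h, a log2 change of -1.05 ± 0.12 (adjusted p = 5.55e-06). Its DCH libraries were spread but all lay above the highest DCH 4h library. Atad5, which unloads the replication clamp, changed by -1.05 ± 0.17 (adjusted p = 9.70e-04), the kinetochore protein Champ1 by -0.86 ± 0.12 (adjusted p = 2.18e-04) and the centrosome protein Cep350 by -0.88 ± 0.14 (adjusted p = 6.43e-04). Apc and the dynein heavy chain Dync1h1 completed the group. Outside these groups, Vars, the valyl-tRNA synthetase, changed by -0.75 ± 0.063 (adjusted p = 4.87e-08), the giant ubiquitin ligase Rnf213 by -0.71 ± 0.091 (adjusted p = 4.31e-05), the ferritin receptor Ncoa4 by -0.61 ± 0.12 (adjusted p = 0.00769), the endocytic receptor Lrp1 by -0.47 ± 0.057 (adjusted p = 1.99e-05) and polycystin-1, Pkd1, by -0.38 ± 0.061 (adjusted p = 9.10e-04). Without the 3 libraries that stood apart, Atad5, Mga, Cep350, Rnf213, Srrm2, Scrib, Trio, Setdb1, Limch1, Ncoa4 and Sptbn1 were among the 13 genes no longer called, with the direction unchanged.

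Genes of the mitochondrial genome made up 6 of the 38 that fell. Their transcripts are not translated on HA-tagged ribosomes, so a change in the cells and a change in carry-over into the pull-down cannot be told apart. All 15 were tested and 14 had a log2 change below 0, but 6 of the 15 averaged under 10 CPM in both groups. COX1, a subunit of cytochrome c oxidase, measured 647, 589, 587, 565 and 527 CPM in DCH and 276, 306, 291, 306 and 262 CPM in DCH 4h, a log2 change of -1.01 ± 0.055 (adjusted p = 3.56e-11). ND1, a subunit of complex I, measured 677, 566, 529, 501 and 421 CPM without the dwell and 237, 262, 231, 207 and 201 CPM after it, a log2 change of -1.24 ± 0.089 (adjusted p = 6.21e-09). For both, every DCH 4h library lay far below every DCH library. ND5 measured 160.0, 144, 101, 116 and 73.1 CPM in DCH and 31.96, 49.0, 25.9, 39.1 and 41.7 CPM in DCH 4h, so that the DCH libraries differed among themselves more than for COX1, and changed by -1.66 ± 0.17 (adjusted p = 1.50e-06). The complex I genes ND6, ND2 and ND4 changed by -1.77 ± 0.20 (adjusted p = 6.49e-06), -0.72 ± 0.077 (adjusted p = 3.13e-06) and -0.52 ± 0.069 (adjusted p = 6.39e-05). The change was not uniform over the genome. CYTB, the cytochrome b gene of complex III, stood at 642 ± 68.4 CPM in DCH and 581 ± 69.7 CPM in DCH 4h (SD, n = 5 each), with overlapping groups and a log2 change of -0.14 ± 0.071 (adjusted p = 0.558). The large ribosomal RNA gene, mt-Rnr2, changed by -0.97 ± 0.22 (adjusted p = 0.0255) and its groups overlapped. The mitochondrial share of all counts was 0.211% to 0.286% in DCH, 0.136% to 0.168% in DCH 4h and 0.147% to 0.173% in media. ND5 (bases 11742 to 13565) and ND6 (13552 to 14070) lie on opposite strands and overlap only at their ends, and ND4 overlaps ND4L. The strand setting of the counting is not given in the sources used here, so reads within the shared stretches cannot be told apart. Near-identical nuclear copies of mitochondrial genes can also take or void reads. With all 15 left out before scaling, 37 genes were called, every one of them among the 44.

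The genes that fell had long transcripts, a feature the test did not use. The longest GENCODE transcript of the 32 nuclear genes that fell had a median of 8594 nt (3623 to 16716 nt), beside 3425 nt over the 13215 tested genes with a length, which are 96.0% of those tested. All 32 lay above that median and 21 lay among the longest 10% of genes. The 6 genes that rose had a median of 2698 nt (736 to 5845 nt), and 1 of them, Fndc1, lay above 3425 nt. The 6 mitochondrial genes were short, 519 to 1824 nt. When nuclear genes tested were divided into 10 equal bins by length, the median log2 change went from 0.052 in the shortest bin (up to 1375 nt) to -0.072 in the longest (from 6895 nt). Over 10 bins of GC content it stayed between -0.012 and 0.033. The median of the longest bin less that of the shortest, over genes of at least 10 CPM with each library set against the mean of the 15 pipetted libraries on the log2(CPM + 0.5) scale, was -0.199, -0.069, -0.215, -0.199 and -0.099 in the DCH 4h libraries and 0.026, -0.012, -0.000068, -0.142 and 0.0040 in the DCH libraries. The groups overlapped, since DCH replicate 4 lay among the DCH 4h libraries. The medium libraries ran from 0.203 to 0.327 but for replicate 1, which stood apart on the principal components and lay at -0.035. No test was run on length, which was looked at after the calls were seen. After each library's trend over length and GC was taken out, 9 genes rose and 30 fell, and 35 of the 44 calls remained, including Nes, Notch1, Tnc, Fat1 and the 6 mitochondrial genes. Lrp1, Pkd1, Fat4, Trio, Setdb1, Limch1, Ncoa4 and Sptbn1 were among the 9 no longer called.

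**Figure D3:**
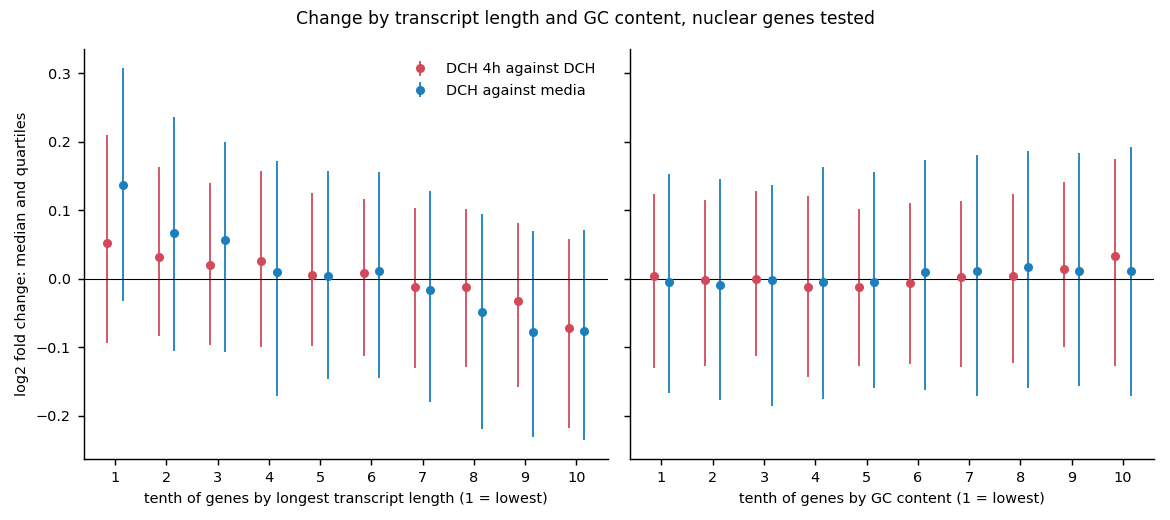
Log2 fold change by bin of nuclear genes, 10 equal bins ordered by longest transcript length (left) and by GC content (right), as the median (points) and quartiles (bars), for DCH 4h against DCH and for DCH against media, which share the DCH libraries. Over length the medians of DCH 4h against DCH run from 0.052 to -0.072, within quartiles that span 0 in every bin.

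The same genes were then read in the medium libraries, with each comparison's own values, since the comparisons share samples. Between DCH and media 265 of 13860 genes were higher and 334 lower (1.91% and 2.41%, or 4.32% together), and between DCH 4h and media 513 of 13794 were higher and 562 lower (3.72% and 4.07%, or 7.79% together). The count for DCH against media was 599 in all and moved widely, to 1025 with DESeq2 and to 395, 394 and 385 without media replicates 2, 3 and 4. Without media replicate 1 it was 656. Nes stood at 1265 ± 36.9 CPM in media (SD, n = 5), with a log2 change of -0.42 ± 0.037 from media to DCH and of -0.73 ± 0.053 from DCH to DCH 4h, and Tnc at 453 ± 33.8 CPM in media, with -0.74 ± 0.063 and -0.45 ± 0.069. Metrn stood at 223 ± 16.3 CPM in media and rose by 0.69 ± 0.058 to DCH and by 0.45 ± 0.057 to DCH 4h. These 3 genes, with Actn1, Pkd1 and Trio, passed the test in both steps and in 1 direction. Most nuclear genes that fell did not: of the 32, 5 were lower in DCH than in media and none was higher, with a median log2 change of -0.0089. Fat1, for example, stood at 328 ± 18.7 CPM in media and 331 ± 9.80 CPM in DCH, a log2 difference of 0.02 ± 0.048 (adjusted p = 0.889). The 32 were chosen for DCH lying above DCH 4h, and the same DCH libraries serve here, which works against a fall from media to DCH. In DCH 4h against media, 30 of the 32 were lower. The 32 were chosen for low levels in these same DCH 4h libraries, so this count is not independent evidence. The called mitochondrial genes went the other way between media and DCH. They were chosen for DCH lying above DCH 4h, and the same DCH libraries serve here, which favours this direction. ND1, ND2, ND4, ND5 and ND6 were higher in DCH than in media, by 0.53 to 1.52 on the log2 scale, as was CYTB (0.91 ± 0.058, adjusted p = 1.41e-09), and COX1 did not pass the test (0.17 ± 0.053, adjusted p = 0.0537). In DCH 4h against media, COX1 and ND1 were lower, ND4 was higher, and ND2, ND5 and ND6 did not pass the test. ND5 thus measured 46.9 ± 11.1 CPM in media, 119 ± 34.5 CPM in DCH and 37.5 ± 8.91 CPM in DCH 4h.

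**Figure D4:**
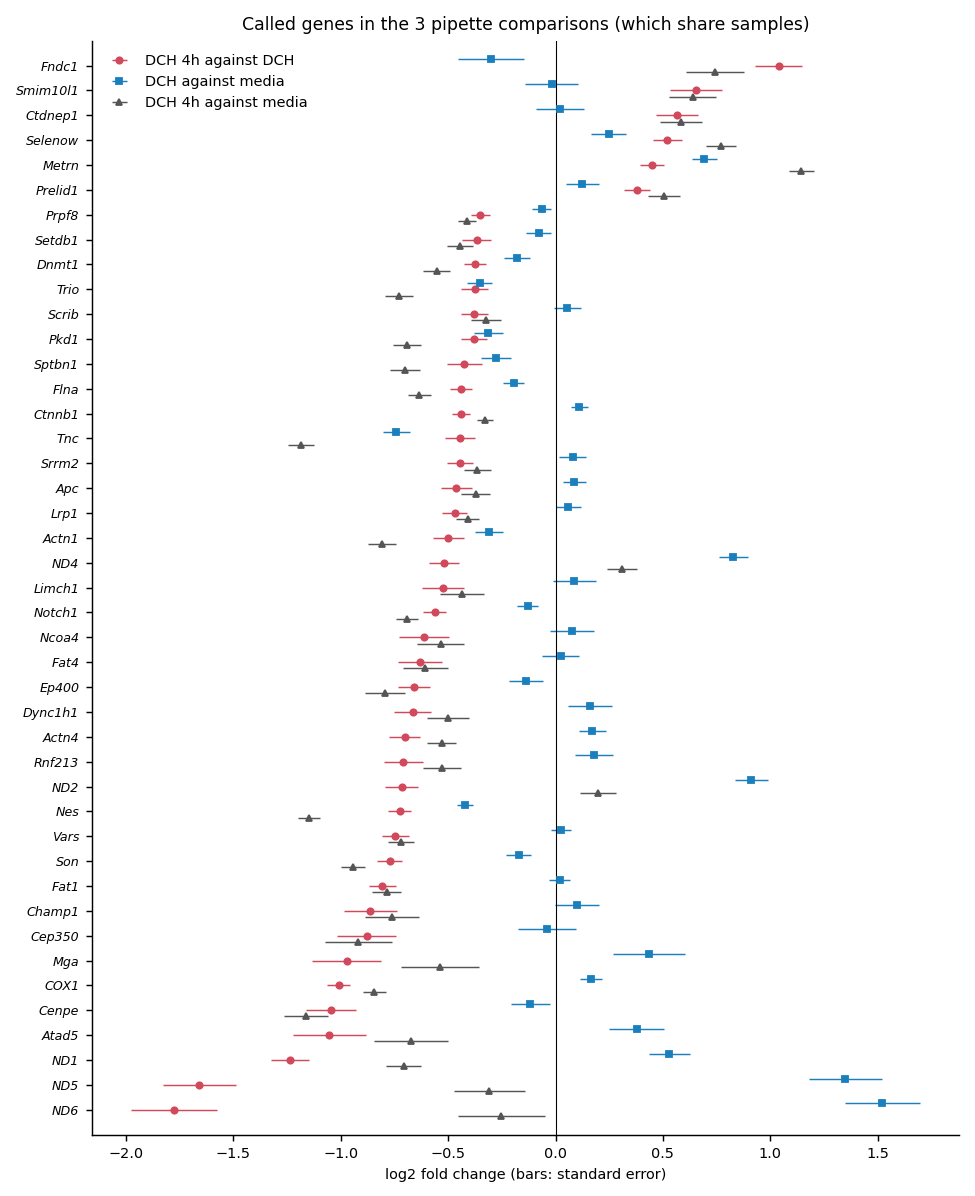
Log2 fold changes (points) and standard errors (bars) of 43 of the 44 called genes in DCH 4h against DCH, DCH against media and DCH 4h against media, ordered by the first, with comparisons that share samples. The nuclear genes that fell over 4 hours mostly lie near 0 between DCH and media, except genes such as Tnc (-0.74) and Nes (-0.42), and ND5 and ND6 lie at 1.35 and 1.52.

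Spontaneous differentiation over 4 days in lowered EGF and FGF (SPONT, 4 libraries) against NPC P15 (4 libraries) shares no sample with the dwell. The study made 3 derivations of NPC, and which of them gave the SPONT or the pipetted cells is not stated in the sources used here, so differentiation and derivation cannot be told apart in this comparison. SPONT libraries had reads on 17263 to 17365 genes, NPC P15 on 14799 to 15242 and the NPC P15 libraries marked d3 on 16833 to 17297. The test called 4420 of 14852 genes higher and 4071 lower (29.8% and 27.4%, or 57.2% together). Of the 38 genes that fell over 4 hours, 24 also fell in SPONT, which is 63.2% of the 38 and 0.590% of the 4071. All 24 were nuclear. Against the 4 NPC P15 d3 libraries, where 29.9% of 14877 genes fell in SPONT, 10 of the 38 did (26.3% of the 38 and 0.225% of the 4450), so the overlap rested on the choice of reference. Nes, Tnc, Cenpe, Atad5, Dnmt1, Fat4, Pkd1, Rnf213, Trio and Vars fell in SPONT against both. Against NPC P15, Nes changed by -2.39 ± 0.15 and Tnc by -5.85 ± 0.12, beside -0.73 and -0.45 over the dwell. Against NPC P15, Sptbn1, ND1, ND2, ND4, ND5 and ND6 were among the 7 that were higher in SPONT. Of the 6 genes that rose, 1, Selenow, also rose in SPONT (16.7% of the 6 and 0.0226% of the 4420) against NPC P15, while Fndc1, Metrn and Prelid1 fell, Metrn by -1.52 ± 0.095.

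Pathway and cell type lists, 36 in all with 549 different genes tested, were then read in the same fit. Between them they held 4 called genes, all lower: Nes, Tnc, Notch1 and Cenpe, which is 0.729% beside 0.32% of all genes tested. DESeq2 called 13. In 31 lists no member was called, and with so few genes called in all, a list of this size without a call says nothing about its members. List medians of at least 5 tested genes lay between -0.19 and 0.16 beside 0.0026 over all genes. The Notch list had the lowest of these. Of its 16 genes, 4 had a log2 change above 0, and after Notch1 the nearest to the threshold was the receptor Notch2, at 56.6 ± 3.5 CPM in DCH and 39.3 ± 4.16 CPM in DCH 4h (SD, n = 5 each) without overlap (-0.52 ± 0.10, adjusted p = 0.0112). In the cell cycle lists, 1 of 20 G2 and M phase genes (Cenpe), none of 20 S phase genes and none of 17 G1 regulators was called. Top2a, the topoisomerase of dividing cells, measured 497, 535, 565, 488 and 518 CPM in DCH and 481, 411, 448, 448 and 449.6 CPM in DCH 4h without overlap, but did not pass the threshold (-0.21 ± 0.048, adjusted p = 0.0283). Mki67, the proliferation antigen, changed by -0.64 ± 0.16 (adjusted p = 0.0604) and Ccnd1, cyclin D1, by -0.04 ± 0.029 (adjusted p = 0.742).

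The lists that mark stress or a loss of oxygen held no called gene, beside 0.32% of all genes tested, a share at which lists this short mostly hold none. Of the 26 hypoxia (HIF) targets tested 11 were above 0, with a median of -0.013, and the smallest p belonged to Bnip3, a mitophagy receptor (-0.51 ± 0.20, adjusted p = 0.335). The 19 glycolytic enzymes had a median of -0.015, with Hk1, hexokinase, nearest to the threshold (-0.12 ± 0.050, adjusted p = 0.384). The medians were 0.027 for 16 heat shock (HSF1) targets, -0.033 for 16 ER chaperones and unfolded protein response genes, -0.038 for 23 genes of the ATF4 and amino acid response, -0.029 for 20 p53 targets, -0.036 for 15 NRF2 targets and -0.053 for 16 interferon-stimulated genes. Ftl1, ferritin light chain and an NRF2 target, came nearest of these, at 119 ± 18.2 CPM in DCH and 157 ± 11.2 CPM in DCH 4h (SD, n = 5 each) without overlap (0.40 ± 0.088, adjusted p = 0.0222). The 17 NF-kB and inflammatory genes had a median of -0.048, the 18 FOXO targets -0.084, the 20 lysosome and autophagy genes -0.037 and the 5 metallothionein and zinc transport genes 0.14. Of 25 immediate early genes, which cells switch on within minutes of stimulation, none was called and the median was 0.0061. Jund was given above, and Myc, the next of them, changed by -0.22 ± 0.067 (adjusted p = 0.157).

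In the other signalling lists the median was -0.0023 for 15 ERK feedback and ETS targets, where Spry2, a receptor kinase inhibitor, came nearest (0.20 ± 0.055, adjusted p = 0.107). It was 0.12 for 14 BMP and Id genes, 0.16 for 10 Wnt targets, 0.15 for 9 Hedgehog genes, 0.13 for 10 gp130 and STAT3 feedback genes and 0.027 for 15 YAP and SRF targets. Smo, the Hedgehog transducer, changed by 0.23 ± 0.065 (adjusted p = 0.115). Of 28 matrix and adhesion genes, Tnc fell, none rose, and the median was -0.028. The 23 cholesterol synthesis genes had a median of 0.031, the 16 ribosome biogenesis genes 0.011 and the 15 circadian clock genes 0.096, with no call. Apart from Tnc none of these passed the test, which does not show that they did not differ.

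**Figure D5:**
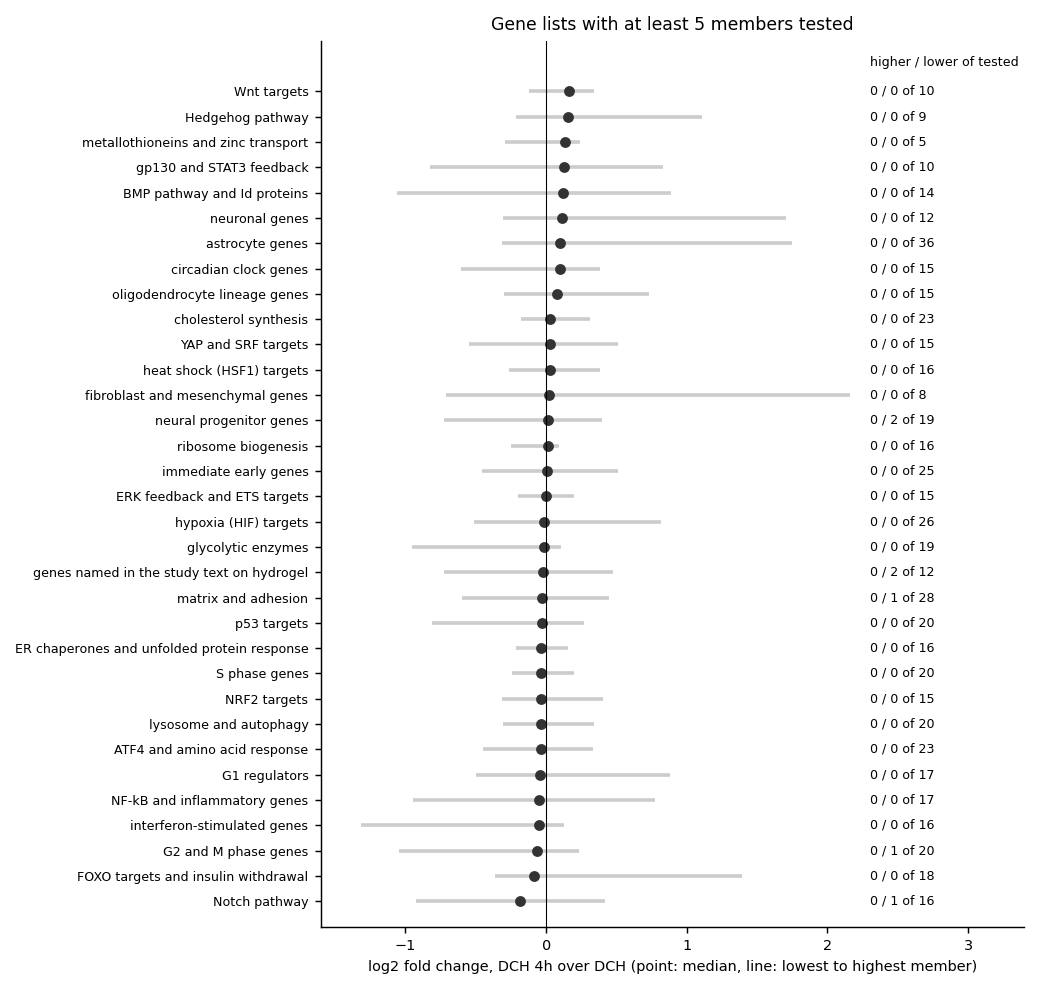
Median log2 fold change of DCH 4h over DCH (points) and range from lowest to highest member (lines) for the gene lists with at least 5 members tested, with the number called higher and lower of those tested at the right. List medians lie between -0.19 and 0.16, and the 4 called genes, Nes, Tnc, Notch1 and Cenpe, are all lower.

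No astrocyte gene was called after 4 hours. Of 36 tested none passed the threshold, beside 0.32% of all genes, and 27 had a log2 change above 0. An unadjusted p below 0.05 was found for 5 of the 36, all higher, beside 9.63% of all genes in either direction. The median was 0.099, beside 0.0026 over all genes. Media is a reference that the DCH and DCH 4h comparisons share. Against it, 11 of the 36 were higher and 1 lower in DCH (median 0.38), beside 1.91% and 2.41% of all genes tested. In DCH 4h, 15 were higher and 1 lower (median 0.44), beside 3.72% and 4.07% of all genes tested. Gfap, the astrocyte filament protein, measured 34.6, 25.3, 26.0, 32.1 and 29.6 CPM in DCH and 24.6, 33.5, 48.3, 45.3 and 52.7 CPM in DCH 4h. DCH 4h replicate 1 lay below every DCH library while replicates 3, 4 and 5 lay above them all, and the log2 change was 0.47 ± 0.16 (adjusted p = 0.255). Against media Gfap changed by 0.67 ± 0.17 (adjusted p = 0.0173) in DCH and by 1.14 ± 0.20 (adjusted p = 3.94e-04) in DCH 4h. Clu, clusterin, stood at 122 ± 7.37 and 122 ± 18.1 CPM (SD, n = 5 each), a change of 0.01 ± 0.084 (adjusted p = 0.997). It had been higher in DCH than in media, by 1.41 ± 0.092 on the log2 scale, and was higher in DCH 4h than in media by 1.42 ± 0.11. Mt3, a brain metallothionein, changed by 0.24 ± 0.098 (adjusted p = 0.365) and the adhesion protein Hepacam by 0.27 ± 0.12 (adjusted p = 0.468) over the dwell, and both were higher than media in DCH (0.99 ± 0.12, adjusted p = 6.28e-06 and 0.60 ± 0.14, adjusted p = 0.00740) and in DCH 4h (1.24 ± 0.11, adjusted p = 3.39e-08 and 0.87 ± 0.11, adjusted p = 1.06e-05). These genes, with Igfbp4, Igfbp2, Slc25a5 and Ccnd1, are among 12 that the study chose on these samples, so their direction is not independent evidence. Of the 12, 2 fell (Nes and Tnc) and none rose over the dwell. The study named them against NPC in media. In that comparison 4 of the 12 were higher and 3 lower in DCH, and 5 were higher and 6 lower in DCH 4h. Igfbp4, which binds insulin-like growth factors, stood at 2263 ± 47.4 CPM in DCH and 2413 ± 32.6 CPM in DCH 4h without overlap (0.10 ± 0.027, adjusted p = 0.0946), and Igfbp2 and the ADP/ATP carrier Slc25a5 changed by -0.06 ± 0.029 (adjusted p = 0.478) and -0.07 ± 0.046 (adjusted p = 0.746). The 15 oligodendrocyte lineage and 12 neuronal genes tested had medians of 0.075 and 0.11 with no call, as had the few pluripotency (3), fibroblast (8), endothelial (2) and myeloid (1) genes that passed the filter on low counts.

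Leaving out each library in turn gave 37 to 49 called genes. Of the 44, 36 were called in all 10 of these fits, and 27 were called in every fit run, among them Fndc1, Metrn, Selenow and Prelid1 of the genes that rose and Nes, Tnc, Notch1, Fat1, Ctnnb1, Son, Vars, Cenpe and the 6 mitochondrial genes of those that fell. No called gene changed direction in any fit.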

How the data were processed

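RiboTag RNA (HA immunoprecipitation) was sequenced as poly-A selected paired 50 nt reads; per the labels the authors trimmed reads with Trimmomatic, used HISAT2 for alignment to mm10 and featureCounts for gene counts, versions and strand setting not given in the sources used here. The deposited counts are raw reads per Entrez gene, 27179 genes in each of 107 tables. Among counts of 1 to 20, 64.8% to 70.4% were even in DCH and DCH 4h, as when both mates of a pair are counted, so fragments are fewer than counts. Genes were named from RefSeq (GRCm38.p6) or GENCODE M21, leaving 1886 without a name. Groups came from the sample titles. Each comparison was fitted on its own 2 groups with edgeR 4.0.16 (TMM, filterByExpr, quasi-likelihood F test, Benjamini-Hochberg, threshold 0.01; the standard error is the log2 change over the square root of F), tested on simulated data first. Genes named are the 12 largest called changes each way at 10 CPM or more without overlap, up to 5 members of each list with the smallest p, and genes the study names for the hydrogel; all other called genes were named after their values were seen. Some genes are not reported here. Members and lists were chosen with earlier results of these data known. Motifs were searched in 250 bases before each start. Alternatives were other size factors, DESeq2 1.42.0, other filters, a replicate block, 3 groups in 1 fit, each library left out and, chosen after seeing the data, 3 more. No 2 replicates agreed within sampling noise (chi-square per gene 40.9 or more).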

Additional observations from a re-analysis of the deposited data

Results flagged for a closer look

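Among 116 groups of 5 libraries checked for a library far from the other 4 (Dixon's ratio above 0.71), 8 were found, and chance alone gives about 1 in 20. In DCH 4h, Vars was highest in replicate 4 (ratio 0.769), Ctnnb1 in replicate 1 (0.845), and Rnf213 (0.825) and Atad5 (0.738) in replicate 5, while in DCH, Pkd1 was lowest in replicate 4 (0.780) and Ncoa4 highest in replicate 1 (0.877). The difference between long and short transcripts was lowest in DCH replicate 4 (0.774), and the mitochondrial share was highest in DCH 4h replicate 2 (0.785), at 0.168% beside 0.136% to 0.143% in the others. Without their library, Vars, Ctnnb1, Rnf213, Atad5 and Pkd1 were still called, and Ncoa4 was not, which was so in 9 of the 10 fits that left out a library.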

How the results depend on the processing

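In DCH 4h against DCH the 44 calls became 159 with DESeq2 (53 higher, 106 lower), 69 with the 3 pipette groups in 1 fit (14 and 55) and 73 with a filter at a mean of 1 CPM (18 and 55), each holding all 44. The cause was not tested. Leaving out 1 library gave 37 to 49. DCH against media gave 1025 calls with DESeq2, 393 with a replicate block and 385 to 656 with 1 library left out, in place of 599, the lowest counts coming without media replicates 2, 3 and 4 (395, 394 and 385). The list genes called rose from 4 to 13 with DESeq2. Same-numbered libraries did not deviate together (r from -0.012 to 0.035 in DCH 4h against DCH), which gives no sign of pairing but cannot exclude a weak one. The replicate block gave 49 calls (10 higher, 39 lower) there, 38 of them among the 44. Counts for DCH 4h against media and SPONT against NPC P15 stayed within 1.5 times under every alternative run, but the falls shared with SPONT went from 24 to 10 with NPC P15 d3 as reference. Of 830 values of called genes under alternatives, 746 stayed past the threshold, 84 did not and 0 changed direction. Small changes, and genes at low counts, are limited by 5 libraries a group.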
